A study of Danio rerio with 12 samples.

Results

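The brains of zebrafish that paid little attention to a pair of calm fish were compared with the brains of fish that saw no fish at all. The comparison used 6 of the 12 arrays of the study: 3 from inattentive bystanders of calm conspecifics (BINIC) and 3 from isolated fish (ISOL), chosen by their labels, with all 18339 annotated genes. Every subject was an adult wild-type AB male, 11 months old, that had spent the night alone in the test tank before a test of 30 min. During the test a BINIC fish could see 2 male conspecifics that did not interact, through a one-way mirror and with no chemical contact, whereas an ISOL fish had no stimulus fish. The BINIC fish were picked from a larger set of bystanders. Their orientation and time near the stimulus placed them in a weakly attentive behavioral cluster. The BINIC group is therefore defined by what the fish did and by what they were shown. The ISOL fish were likewise selected from a larger set, as inattentive fish of that same cluster. The other 6 arrays came from attentive bystanders, 3 to the same calm stimulus (BANIC) and 3 to a fight (BIC). Their values are given beside BINIC and ISOL for part of the genes described. These arrays also entered the choice of variable genes and the contrasts on 12 arrays.

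Whole-brain RNA of 1 fish was hybridized to each array, and the values are log2 signals normalized by RMA, on which a step of 1 is a doubling. Values are listed for fish 1, 2 and 3 of a group, with BINIC before ISOL, and differences are BINIC minus the other group. The 19 neuron markers averaged 8.69, 8.73 and 8.67 in the BINIC fish and 8.66, 8.73 and 8.70 in the ISOL fish, against array medians of 5.54 to 5.59 over all probe sets, and 18 of them lay above the median gene level. None of the 20 muscle markers and none of the 10 pituitary hormone markers differed between the groups at an unadjusted P under 0.05. Of all genes 5.25% were higher and 4.07% lower in BINIC at that threshold, so few calls are due in lists this small. Of the muscle and pituitary markers 1 and 0 lay above the median gene level. In whole-brain RNA, fewer cells of a type and less RNA per cell cannot be told apart.

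Neurons that have just fired switch on immediate early genes such as npas4a, fos and egr4, which encode transcription factors. The brain makes nearly all of its own cholesterol, since lipoproteins do not cross the blood-brain barrier, and the enzymes of that pathway are switched on together by the transcription factor Srebf2 when membrane sterol is low. Clustered protocadherins are adhesion proteins of the neuronal surface that are encoded in tandem arrays, and each neuron expresses its own small combination of them.

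The isolated fish differed among themselves. The median SD of a gene over 3 arrays was 0.16 in ISOL and 0.15 in BINIC, among the 9169 genes tested for differential expression. ISOL1 and ISOL3 lay together more than 1 log2 unit from ISOL2 and all BINIC arrays in 17 genes. In 13 of these BIC1, an attentive fish, lay on the side of ISOL1 and ISOL3. Other pairs of arrays were not counted. Alone, ISOL1 lay more than 1 from the other 5 arrays in 16 genes, ISOL2 in 8 and ISOL3 in 5. For BINIC1, BINIC2 and BINIC3 these counts were 4, 1 and 3. For genes named below that were called only without ISOL2, that result is given as well. The mean of the 12 red blood cell markers was 6.48, 5.87 and 7.01 in the ISOL fish and 6.38, 6.09 and 6.42 in the BINIC fish, lowest in ISOL2 and highest in ISOL3. The 50 photoreceptor and pineal markers averaged 3.91, 4.44 and 4.54 in ISOL and 4.47, 3.90 and 4.5 in BINIC, so that 1 fish of each group was low.

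Between BINIC and ISOL, 4 genes passed the false discovery rate (FDR, Benjamini-Hochberg) threshold of 0.05 by limma, or 0.0436% of the genes tested. Of these, 3 rose by at least 1 on the log2 scale and are the DE genes of the comparison (0.0327%), and 1 fell. They are 2 clustered protocadherins, an oxysterol-binding protein and a glucuronosyltransferase. Averaged over the 12 arrays, all 4 lay below the median gene level of 5.75, but the BINIC values of osbpl1a and pcdhga10 lay above it. With the spread estimated over all 4 groups none of the 4 genes passed, with an FDR of 0.0507 for osbpl1a, 0.0608 for pcdh2ab7 and ugt5c2, and 0.208 for pcdhga10 (limma).

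The protocadherin pcdh2ab7, on chromosome 14, had log2 values of 4.80, 4.88 and 4.71 in the BINIC fish and 2.39, 2.21 and 2.14 in the ISOL fish. Every ISOL value lay more than 2 log2 units below every BINIC value. The rise was 2.55 (SE 0.13, FDR = 1.8e-06, limma, n = 3 and 3), and it lay between 2.49 and 2.62 with any of the 6 arrays left out. In the attentive fish the values were 4.66, 4.83 and 4.92 in BANIC and 2.42, 5.02 and 5.02 in BIC. All arrays therefore lay at 1 of 2 levels, and the 4 low ones were the isolated fish and BIC1.

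osbpl1a encodes an oxysterol-binding protein of the family that carries sterols and phospholipids between membranes, and lies on chromosome 2. Its values were 7.18, 7.39 and 7.62 in BINIC and 4.88, 5.11 and 4.87 in ISOL, a rise of 2.44 (SE 0.15, FDR = 6e-06, limma). Leaving out 1 array kept it between 2.33 and 2.55. Among the attentive fish it was 4.81, 4.85 and 5.02 in BANIC and 4.84, 5.0 and 7.05 in BIC, so that 8 arrays lay at or below 5.11, 4 lay at or above 7.05, and the 1 high fish outside BINIC was BIC3. It was the single gene higher in BINIC than in BANIC at an FDR under 0.05 (log2 difference 2.50, SE 0.38, FDR = 0.0137, limma on the 12 arrays), and against BIC the difference was 1.76 (FDR = 0.144). The other 10 measured genes of the family did not differ at an unadjusted P under 0.05, among them osbpl9 (0.14), osbpl3b (-0.16) and osbpl7 (0.18).

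The protocadherin pcdhga10 had values of 6.09, 5.76 and 6.33 in BINIC and 4.69, 4.5 and 4.86 in ISOL, which did not overlap. It rose by 1.38 (SE 0.17, FDR = 0.00745, limma). BANIC stood at 6.46, 6.18 and 6.25 and BIC at 4.12, 6.28 and 5.65, and the lowest of all 12 values was that of BIC1. The call was lost without BINIC1 (FDR = 0.0981), without ISOL1 (FDR = 0.0905) and with no SD filter (FDR = 0.128).

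**Figure D1:**
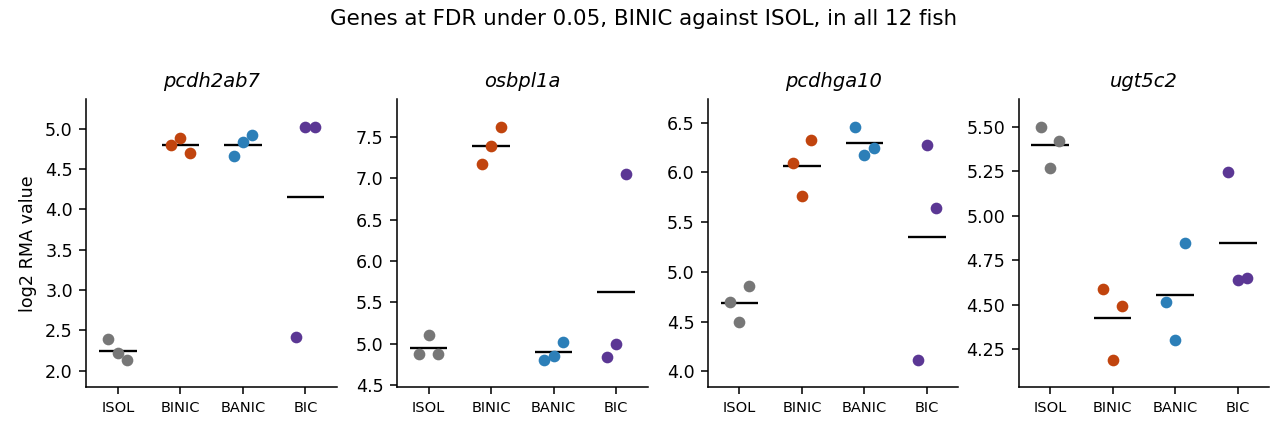
Log2 RMA values of the 4 genes that passed the FDR threshold between BINIC and ISOL, with 1 point per fish in each of the 4 groups and a line at the group mean. For pcdh2ab7 the 3 ISOL fish and 1 BIC fish lie below 2.5 and all others above 4.6, and for osbpl1a the 3 BINIC fish and 1 BIC fish lie above 7.0 and all others below 5.2.

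The clustered protocadherins lay on both sides of 0. Of 27 measured members, 5 (18.5%) were higher and 8 (29.6%) lower in BINIC at an unadjusted P under 0.05, against 5.25% higher and 4.07% lower of all 18339 genes. The median log2 fold change of the list was -0.13, against 0.01 for all genes, and 21 of the 27 were below 0. The 5 higher members were pcdh2ab7, pcdhga10, pcdh2g5 (1.15), pcdh2aa15 (0.56) and pcdh2aa1 (0.47). Their BINIC and ISOL values did not overlap, as in 8.56% of all genes with BINIC higher. pcdh2g5 stood at 5.48, 4.87 and 4.92 in BINIC and 3.87, 4.24 and 3.70 in ISOL (SE 0.19, FDR = 0.0858), and passed the threshold without ISOL2 (FDR = 0.0111).

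The lower protocadherins were led by pcdh2g7, at 5.32, 5.32 and 5.04 in BINIC and 5.69, 6.01 and 6.10 in ISOL (-0.71, SE 0.15, FDR = 0.208). Values that did not overlap were also seen for pcdh2g28 (-0.39), pcdh2ab2 (-0.34) and pcdh2ab9 (-0.21). In all, 5 of the 27 members did not overlap with BINIC lower, against 7.25% of all genes. Members with a small P for this difference tend not to overlap, so this is no separate support. The number of higher members was 5 with each array left out, whereas the number of lower members was 3 without ISOL3, 5 without BINIC2, BINIC3 or ISOL2, and 8 otherwise. By the annotation chromosome 14 holds 11 of these 13 genes, and pcdh1g2 (-0.43) lies on chromosome 10. pcdhga10 had no chromosome in the annotation, but the study places it on chromosome 14. Among the 17 members above the median gene level 0 were higher and 7 lower, against 6.09% and 3.83% of all genes above it. Members of a tandem array share sequence, and how far a probe set of one binds RNA of another was not tested.

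ugt5c2 belongs to the glucuronosyltransferases, enzymes that attach glucuronic acid to steroids and foreign compounds. It had values of 4.59, 4.19 and 4.49 in BINIC and 5.50, 5.27 and 5.42 in ISOL and fell by 0.97 (SE 0.14, FDR = 0.0489, limma), short of the fold change threshold. It kept an FDR under 0.05 in 1 of the 6 fits with an array left out, without ISOL2 (FDR = 0.0131), and reached 0.414 without ISOL1. Its neighbours in name on chromosome 18 had the same order of groups: ugt5c3 stood at 3.23, 3.01 and 3.09 in BINIC and 4.2, 3.64 and 3.96 in ISOL (-0.82, FDR = 0.149), and ugt5c1 at 3.17, 2.40 and 2.99 against 3.57, 3.74 and 4.06 (-0.94, FDR = 0.208). Most attentive fish were near BINIC and BIC1 was near ISOL, with ugt5c2 at 4.52, 4.30 and 4.85 in BANIC and 5.25, 4.64 and 4.65 in BIC. Of the 14 measured members, 4 (28.6%) were lower at an unadjusted P under 0.05, against 4.07% of all genes, the fourth being ugt2b2p on chromosome 5 (-0.58), and 1 was higher, ugt5g1 (0.34). The count of lower members was 4 with each array left out. All 4 lay below the median gene level, and of the 3 members above it 0 were lower.

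Enzymes of cholesterol synthesis were higher in BINIC. Of 21 measured enzymes of the pathway, 15 (71.4%) were higher in BINIC at an unadjusted P under 0.05 and 0 were lower, against 5.25% and 4.07% of all genes. None passed the FDR threshold on its own. The standard errors given for single genes are those of the fit on the 9169 genes. The mean of the 21 enzymes was 6.09, 6.17 and 5.93 in the BINIC fish and 5.77, 5.65 and 5.68 in the ISOL fish, or 6.06 ± 0.12 and 5.70 ± 0.06 (SD, n = 3 each), with no overlap. The median log2 fold change of the enzymes was 0.33, and 18 of 21 were above 0. For 14 enzymes the groups did not overlap with BINIC higher, against 8.56% of all genes, and for 1, lbr, with BINIC lower, against 7.25%.

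At the head of the pathway, acat2, which joins acetyl-CoA units, stood at 6.81, 6.78 and 6.42 in BINIC and 5.96, 6.24 and 5.92 in ISOL (0.63, SE 0.15). hmgcs1, the synthase that makes HMG-CoA, stood at 7.12, 7.16 and 6.71 against 6.56, 6.30 and 6.15 (0.66, SE 0.16). hmgcra, the reductase that limits the rate of the pathway, stood at 6.78, 7.13 and 6.63 against 6.49, 6.01 and 6.44 (0.53, SE 0.17). Its second copy hmgcrb did not share the difference, with 6.33, 6.46 and 6.59 against 6.42, 6.53 and 6.69 (-0.08). The 2 mevalonate kinases did not differ at an unadjusted P under 0.05 (mvk 0.04, pmvk 0.03), while the decarboxylase after them, mvda, did, at 5.92, 5.79 and 5.46 against 4.91, 5.14 and 5.12 (0.66, SE 0.15).

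The middle of the pathway builds the sterol rings. idi1, the isomerase of isoprenoid units, was higher by 0.33 and fdft1, which makes squalene, by 0.27. sqlea, the squalene epoxidase, had the largest fold change of the list, at 6.33, 6.63 and 5.98 in BINIC and 5.73, 5.42 and 5.30 in ISOL (0.83, SE 0.18, FDR = 0.208), whereas its copy sqleb stood at 3.26, 3.66 and 3.52 against 3.64, 3.52 and 3.49 (-0.07). lss, which closes the rings into lanosterol, had the smallest P of the list, at 4.73, 4.62 and 4.53 against 3.96, 4.1 and 3.95 (0.62, SE 0.13, FDR = 0.208).

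The enzymes that trim lanosterol to cholesterol were also higher, with msmo1 at 0.59, cyp51 at 0.44, nsdhl at 0.43, sc5d at 0.31, dhcr7 at 0.30 and tm7sf2 at 0.24. The strongest of them was hsd17b7, a reductase of the demethylation complex, at 6.81, 6.99 and 6.26 in BINIC and 5.98, 5.82 and 5.98 in ISOL (0.76, SE 0.18). ebp (0.25) and the reductase lbr (-0.17) did not differ at an unadjusted P under 0.05.

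**Figure D2:**
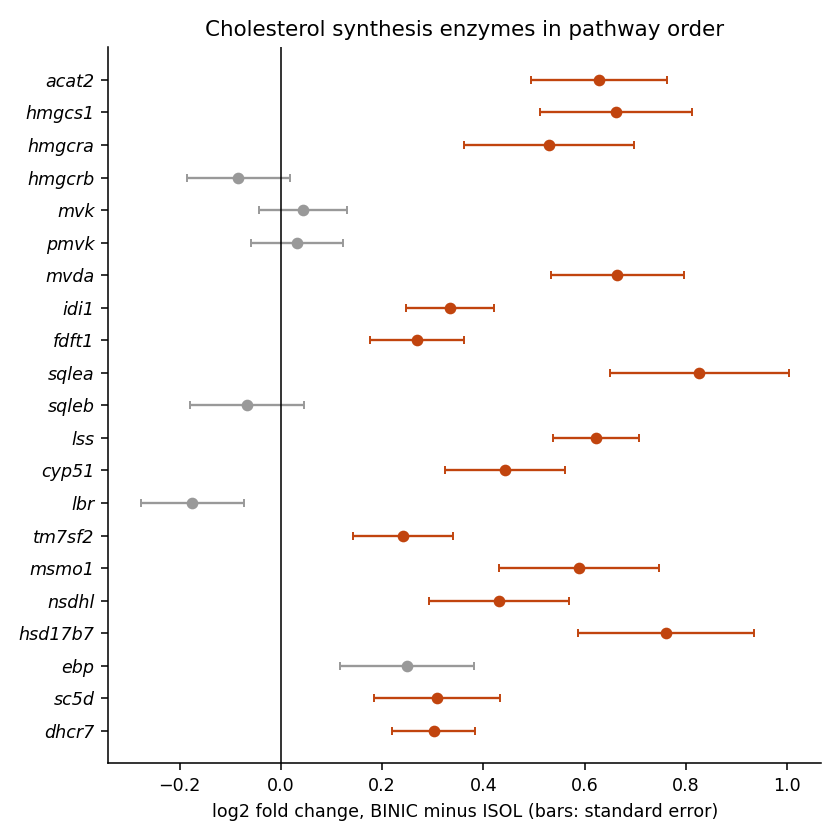
Log2 fold changes (BINIC minus ISOL) of the 21 measured cholesterol synthesis enzymes, in pathway order from top to bottom, with standard errors from the limma fit on all genes that gave the counts. Orange points are the 15 enzymes at an unadjusted P under 0.05, all to the right of 0, from 0.24 (tm7sf2) to 0.83 (sqlea), and grey points are the other 6.

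Of the BINIC fish, BINIC3 was the lowest in all 15 enzymes, and its list mean was 5.93. The attentive fish had list means of 5.73, 5.89 and 5.89 in BANIC and 5.80, 5.87 and 5.91 in BIC. All lay below the lowest BINIC fish. BANIC1 was also below ISOL1, whereas BANIC2, BANIC3 and the BIC fish lay above every ISOL fish. The median difference of the enzymes from ISOL was 0.18 in BANIC and 0.20 in BIC, against 0.33 in BINIC. As a median over the enzymes, BINIC exceeded BANIC by 0.25 and BIC by 0.17, against 0.02 and 0.01 over all genes, but no enzyme passed the FDR threshold in either contrast. With each array left out, 12 to 15 enzymes were higher and 0 lower, and the median stayed between 0.31 and 0.41. Without ISOL2, 12 of 21 were higher with a median of 0.34. Above the median gene level 11 of 13 enzymes were higher and 0 lower.

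Oligodendrocytes make much of the cholesterol of the brain for myelin. The 14 oligodendrocyte and myelin markers averaged 7.97, 7.83 and 7.88 in BINIC and 7.78, 7.85 and 7.79 in ISOL, with a median log2 fold change of 0.11 and 0 members at an unadjusted P under 0.05 in either direction. The 20 radial glia and astroglia markers had a median of 0.04, with 0 higher and 1 lower. Of all genes 5.25% were higher and 4.07% lower, and in lists this small counts of 0 or 1 are close to those shares. The part of these marker shifts in the cholesterol result was not tested.

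The genes around the pathway had smaller counts. Among 33 genes of sterol regulation and transport, 2 (6.06%) were higher and 3 (9.09%) lower at an unadjusted P under 0.05, beside 5.25% and 4.07% of all genes. The lower count was 1 without BINIC3 and 0 without ISOL3, and the higher count was 1 without BINIC1 or ISOL3. insig1, a target of Srebf2 that retains its escort protein in the endoplasmic reticulum, was higher (0.32), as was the sterol exporter abcg4b (0.27). soat1, which esterifies cholesterol for storage, was lower (-0.50, with 4.52, 4.13 and 4.49 in BINIC and 4.94, 4.53 and 5.18 in ISOL), as were cyp46a1.4, of the cholesterol 24-hydroxylase family (-0.40), and star, the mitochondrial cholesterol carrier (-0.27). The transcription factor srebf2 stood at 7.67, 7.62 and 7.61 in BINIC and 7.68, 7.34 and 7.51 in ISOL (0.12), where the groups overlapped. In fatty acid synthesis 4 of 27 genes (14.8%) were higher and 1 lower, the higher ones being hsd17b12b, scd, elovl5 and fads2, enzymes of chain elongation and desaturation. hsd17b12b stood at 6.40, 6.43 and 6.36 in BINIC and 5.86, 6.01 and 6.01 in ISOL (0.44, SE 0.12, FDR = 0.373).

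Of the other genes with the smallest P, those higher in BINIC were led by ssr3, a subunit of the translocon-associated complex through which secreted proteins enter the endoplasmic reticulum. It stood at 7.44, 7.21 and 7.58 in BINIC and 6.58, 6.57 and 6.49 in ISOL (0.86, SE 0.14, FDR = 0.0736), with BANIC at 7.09, 7.01 and 6.77 and BIC at 6.98, 6.59 and 6.96. The small heat shock protein hspb6 was higher by 0.73 (FDR = 0.153). It stood at 7.01, 6.82 and 6.82 in BINIC and 5.94, 6.31 and 6.21 in ISOL, and 2 BANIC fish exceeded all BINIC fish, at 6.70, 7.12 and 8.03. tfap2c, a transcription factor of the AP-2 family, was higher by 0.75 at a low level (3.62, 3.69 and 3.58 against 2.66, 2.96 and 3.03, FDR = 0.149).

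Also among them were adrb2a, a beta-2 adrenergic receptor, nitr6b, an immune-type receptor of fish, and slc5a5, the iodide transporter. adrb2a stood at 6.90, 6.73 and 6.71 in BINIC and 6.01, 6.04 and 6.33 in ISOL (0.65, SE 0.14, FDR = 0.208). In BANIC it was near BINIC, at 6.63, 6.75 and 6.56, and in BIC it stood at 6.29, 6.46 and 6.59. The fold changes of nitr6b and slc5a5 were 0.62 and 0.62 (FDR = 0.208 for each). These genes were picked by their small P for this difference, and for none of them did the 2 groups overlap.

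The genes lower in BINIC, apart from ugt5c2, did not reach the FDR threshold. vwa7, with a von Willebrand factor A domain, stood at 3.87, 4.08 and 3.87 in BINIC and 4.94, 4.55 and 5.21 in ISOL (-0.96, SE 0.17, FDR = 0.131, and FDR = 0.00568 without ISOL2). The difference from ISOL was shared by BANIC, at 3.89, 3.61 and 3.85 (BANIC minus ISOL -1.12, FDR = 0.0285, limma). In BIC vwa7 stood at 4.82, 4.47 and 4.21. mrps6, a protein of the mitochondrial small ribosomal subunit, stood at 5.96, 5.95 and 5.87 against 6.80, 6.42 and 6.79 (-0.75, FDR = 0.149). casp8l1, of the caspase-8 family, had a large but uneven difference, at 3.48, 3.23 and 5.15 in BINIC and 6.37, 5.28 and 6.06 in ISOL (-1.95, SE 0.41, FDR = 0.208). The attentive fish were split as well, at 5.15, 5.24 and 3.41 in BANIC and 4.99, 5.19 and 3.39 in BIC. BINIC3 lay near the higher of these fish and near ISOL2. Without BINIC3 casp8l1 differed by -2.55 (FDR = 0.00224, limma). That fit drops the 1 BINIC fish that goes against the difference, so it is no separate support.

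A mitochondrial transcript stood apart from the rest of its genome. ND6, the complex I subunit encoded on the light strand of mitochondrial DNA, had values of 7.54, 7.53 and 7.52 in BINIC and 8.05, 8.20 and 8.16 in ISOL (-0.60, SE 0.12, FDR = 0.208). BANIC lay at 8.0, 8.15 and 8.32 and BIC at 7.84, 8.41 and 7.95, all above BINIC. The 7 other measured mitochondrial genes, with values from 10.3 to 12.2, had log2 fold changes between -0.05 and 0.08.

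**Figure D3:**
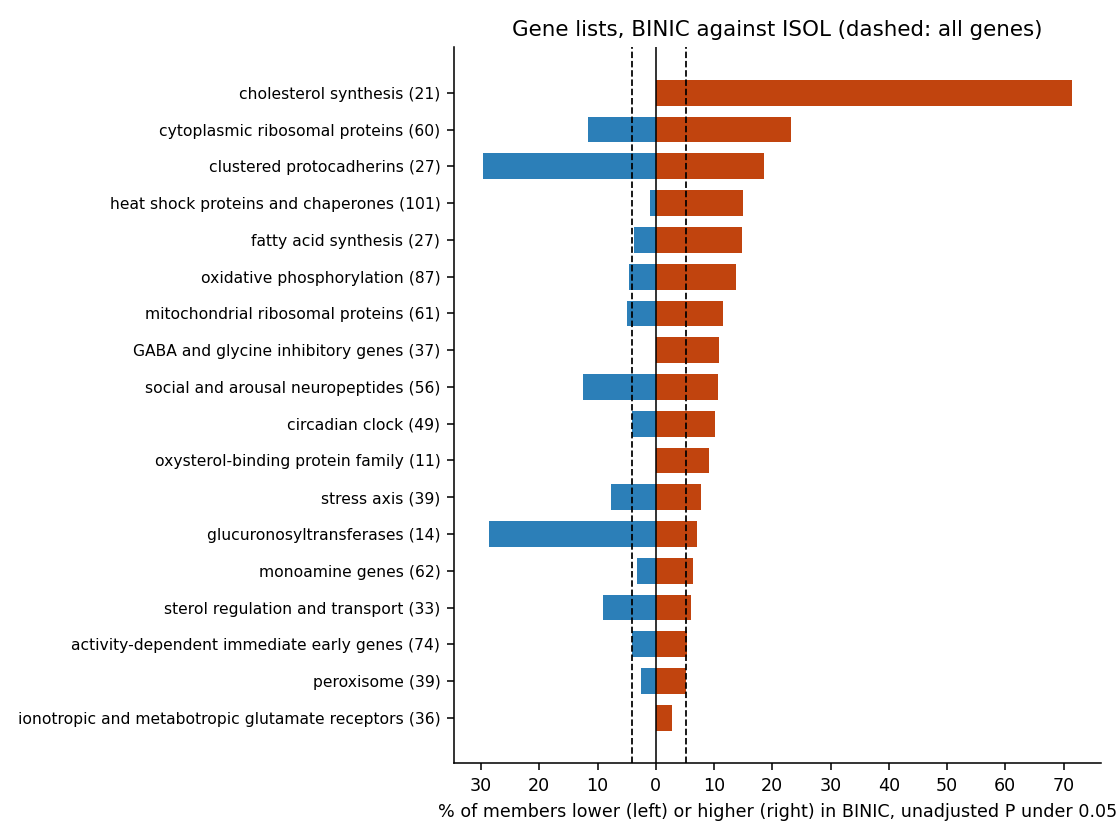
Share of the measured members of each of 18 gene lists that were higher (right, orange) or lower (left, blue) in BINIC than in ISOL at an unadjusted P under 0.05, with the number of measured members in brackets. Dashed lines mark the shares over all genes, 5.25% higher and 4.07% lower, and the cholesterol synthesis bar reaches 71.4%.

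Among genes of protein folding and of energy supply the share of higher members was above the 5.25% of all genes, with small fold changes. Of 101 heat shock proteins and chaperones, 15 (14.9%) were higher and 1 lower, and the median log2 fold change was 0.04. Relative to ISOL, the median of this list was 0.01 in BANIC and 0.01 in BIC. Beside hspb6 the higher members included the mitochondrial chaperonin hspd1 (6.83, 7.02 and 6.98 in BINIC against 6.59, 6.63 and 6.69 in ISOL, 0.31), the endoplasmic reticulum co-chaperone dnajc3a (0.31), the chaperonin subunits cct7 (0.23) and cct3 (0.29), and dnajc18 (0.29). The lower one was dnajb1a, a cytosolic Hsp40 (-0.31). The higher count was 7 without BINIC3, 8 without ISOL1 or ISOL3 and 10 to 12 without any other array, while the share of all genes then ranged from 3.59% to 6.39%.

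Of 87 oxidative phosphorylation genes, 12 (13.8%) were higher and 4 (4.6%) lower, beside 5.25% and 4.07% of all genes. The median of the list relative to ISOL was 0.04 in BINIC, 0.05 in BANIC and 0.06 in BIC, so the shift was not particular to BINIC. ndufa6, a complex I subunit, stood at 9.42, 9.34 and 9.47 in BINIC and 9.03, 9.04 and 9.06 in ISOL (0.37), and ndufa12 (0.37), cox6b1 (0.42) and the ATP synthase subunit atp5po (0.39) were also higher. Subunits of the same complexes were lower, with ndufs6 at 4.88, 4.89 and 4.87 in BINIC and 5.45, 5.26 and 5.32 in ISOL (-0.46) and cox7a1 at -0.63. Of 61 mitochondrial ribosomal proteins, 7 (11.5%) were higher, led by mrpl27 (0.48), and 3 (4.92%) lower, led by mrps6, and 1 was lower without ISOL1 or ISOL3. Without BINIC2 the higher oxidative phosphorylation genes numbered 7.

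Cytoplasmic ribosomal proteins were split. Of 60 measured, 14 (23.3%) were higher and 7 (11.7%) lower, beside 5.25% and 4.07% of all genes, with a median of -0.01. rpl3 stood at 9.07, 9.05 and 9.03 in BINIC and 8.64, 8.70 and 8.71 in ISOL (0.37), and rpl26 (0.36), rps16 (0.36) and rps29 (0.67) were higher too. rpl11 was lower, at 7.80, 7.59 and 7.74 against 8.42, 8.10 and 8.40 (-0.60), as were rplp2 (-0.44) and rps2 (-0.31). Without ISOL2 the split turned to 9 higher and 11 lower, without BINIC1 it was 9 and 8, without BINIC3 11 and 3, and without ISOL1 12 and 4. Ribosomal proteins have many copies elsewhere in the genome, and which copy a probe set reads was not tested.

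On a list of 56 genes of social and arousal neuropeptides, 6 (10.7%) were higher and 7 (12.5%) lower, beside 5.25% and 4.07% of all genes. These counts were 2 and 3 without ISOL1 and 3 and 4 without ISOL3. The list is not limited to peptides, and 1 of its higher members was esr2a, an estrogen receptor gene (0.41). cart4, a cocaine- and amphetamine-regulated transcript, stood at 6.78, 7.43 and 7.09 in BINIC and 6.56, 6.33 and 6.78 in ISOL (0.55), and pmchl, a melanin-concentrating hormone precursor, was higher by 0.55. qrfp, an arousal peptide, was lower, at 5.24, 5.12 and 5.18 against 5.42, 5.55 and 5.63 (-0.36), as were trh (-0.24) and the feeding peptide agrp (-0.42). The isotocin gene oxt stood at 10.11, 10.40 and 9.38 against 10.65, 10.14 and 10.27, and the social-sensing peptide gene pth2 at 3.96, 3.94 and 3.96 against 4.18, 3.88 and 4.15, with overlap in each. The receptor mchr1b of melanin-concentrating hormone was higher, at 5.71, 5.83 and 5.79 against 4.96, 5.47 and 5.0 (0.63, FDR = 0.245), and passed the FDR threshold without ISOL2 (FDR = 0.0257).

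In the stress axis 3 of 39 genes were higher and 3 lower, 7.69% each way beside 5.25% and 4.07% of all genes, and the lower count was 1 without ISOL1 or BINIC3. crha, a corticotropin-releasing hormone gene, was lower, at 3.58, 3.79 and 3.80 in BINIC and 4.17, 4.14 and 4.00 in ISOL (-0.38), and the urocortin gene ucn3l was higher, at 6.52, 7.08 and 6.60 against 6.19, 5.58 and 6.34 (0.70). The glucocorticoid target fkbp5 spread widely within each group, at 8.88, 8.74 and 6.35 in BINIC and 8.51, 4.5 and 8.74 in ISOL, as did a second target, klf9, at 9.39, 9.40 and 7.89 against 8.94, 5.81 and 9.32. ISOL2 was the lowest and BINIC3 the next lowest of all 12 fish in both genes, so their difference between groups (0.74 and 0.87) was within the spread.

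The clock list was led by per1b, at 7.42, 8.20 and 7.93 in BINIC and 6.89, 6.87 and 7.54 in ISOL (0.75). The attentive fish were near BINIC, with per1b at 8.11, 7.38 and 8.05 in BANIC and 7.45, 8.12 and 7.84 in BIC. The clock list had 5 of 49 genes (10.2%) higher and 2 (4.08%) lower, beside 5.25% and 4.07% of all genes. It was 0 higher and 1 lower without ISOL2, 0 and 0 without ISOL1 or BINIC2, 2 and 1 without BINIC3, 9 and 5 without BINIC1, and 16 and 3 without ISOL3. Of 62 monoamine genes 4 (6.45%) were higher and 2 (3.23%) lower, close to the shares of all genes, and the higher count ranged from 1 without BINIC2 to 6 without ISOL2. Of 37 genes of inhibitory transmission 4 (10.8%) were higher and 0 lower, led by the GABA-A receptor subunit gabrz at 8.59, 8.57 and 8.54 in BINIC and 8.28, 8.33 and 8.24 in ISOL (0.29). Glutamate receptors (1 higher and 0 lower of 36) and peroxisome genes (2 and 1 of 39) were near the shares of all genes. Neuron markers had 0 of 19 in either direction. Endothelial markers had 2 higher and 4 lower of 25, microglia and leukocyte markers 1 and 2 of 28, and mural and fibroblast markers 0 and 2 of 15. In these endothelial, microglia and mural lists the share of lower members was above the 4.07% of all genes. The share of higher members was above 5.25% in the endothelial list only. With 1 array left out, the lower counts ranged from 2 to 5, from 1 to 5 and from 0 to 2, in the same order of lists.

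Few immediate early genes differed between BINIC and ISOL. Between BINIC and ISOL, 4 of 74 were higher and 3 lower, shares of 5.41% and 4.05% beside 5.25% and 4.07% of all genes, and the median was 0.05. The higher count was 10 without ISOL3, 1 without ISOL1 and 2 without BINIC2. npas4a stood at 7.5, 7.80 and 7.39 in BINIC and 6.98, 6.98 and 7.46 in ISOL (0.42, FDR = 0.545), while its paralog npas4b had the opposite sign, at 5.0, 5.27 and 5.68 against 5.80, 5.81 and 5.70 (-0.45, FDR = 0.52). fos (0.29), egr4 (0.23) and nr4a1 (-0.02) overlapped between the groups.

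Against the attentive fish these genes were low. In the fit of 12 arrays npas4a differed from BANIC by -1.39 (SE 0.21, FDR = 0.0137) and from BIC by -1.82 (SE 0.21, FDR = 0.000597) on the log2 scale, with no overlap. At an FDR under 0.05, BINIC differed from BANIC in 6 genes (0.0654%) and from BIC in 8 (0.0873%), and npas4a, fos, egr4 and her4.1 were among them in both contrasts. The call against BANIC depends on the fit. When the 6 arrays of that pair were fitted alone, 1 gene passed, and it was higher in BINIC. The calls of npas4a, fos, egr4 and her4.1 against BANIC were therefore lost in that fit.

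her4.1, a Notch target of radial glia, was the single marker of that list at an unadjusted P under 0.05 against ISOL. Its values were 5.76, 5.26 and 5.74 in BINIC, 6.56, 6.04 and 6.55 in ISOL, 6.30, 6.86 and 6.90 in BANIC and 6.57, 6.55 and 6.80 in BIC, so that BINIC lay below all 9 other fish. It fell in BINIC relative to BANIC (-1.10, SE 0.19, FDR = 0.0369) and to BIC (-1.06, SE 0.19, FDR = 0.043), and differed from ISOL by -0.80 (FDR = 0.234, and FDR = 0.0393 without ISOL2). The copies her4.4 (0.00) and her4.5 (-0.24) were dim and did not differ at an unadjusted P under 0.05, and gfap stood at 7.94, 7.46 and 7.43 in BINIC and 7.53, 7.35 and 7.5 in ISOL.

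In 429 genes (2.34% of all) the BINIC fish lay above all 9 other fish and in 251 (1.37%) below them. The widest gap was that of nudc, a dynein-associated chaperone, at 7.78, 7.86 and 7.94 in BINIC and 8.52, 8.57 and 8.46 in ISOL (-0.66, SE 0.12, FDR = 0.149), with BANIC at 8.42, 8.33 and 8.33 and BIC at 8.48, 8.43 and 8.32. park7, which guards mitochondria against oxidants, was above all others, at 7.38, 7.43 and 7.41 against 6.71, 7.06 and 7.06 in ISOL (0.46, FDR = 0.39). calb2b, the calcium buffer calretinin, stood at 7.70, 7.67 and 7.60 against 6.98, 7.29 and 7.12 (0.53, FDR = 0.27), and the proteasome subunit psmb1 at 9.15, 9.29 and 9.32 against 8.36, 8.91 and 8.56 (0.64, FDR = 0.245). park7, calb2b and psmb1 were chosen after their values were seen.

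**Figure D4:**
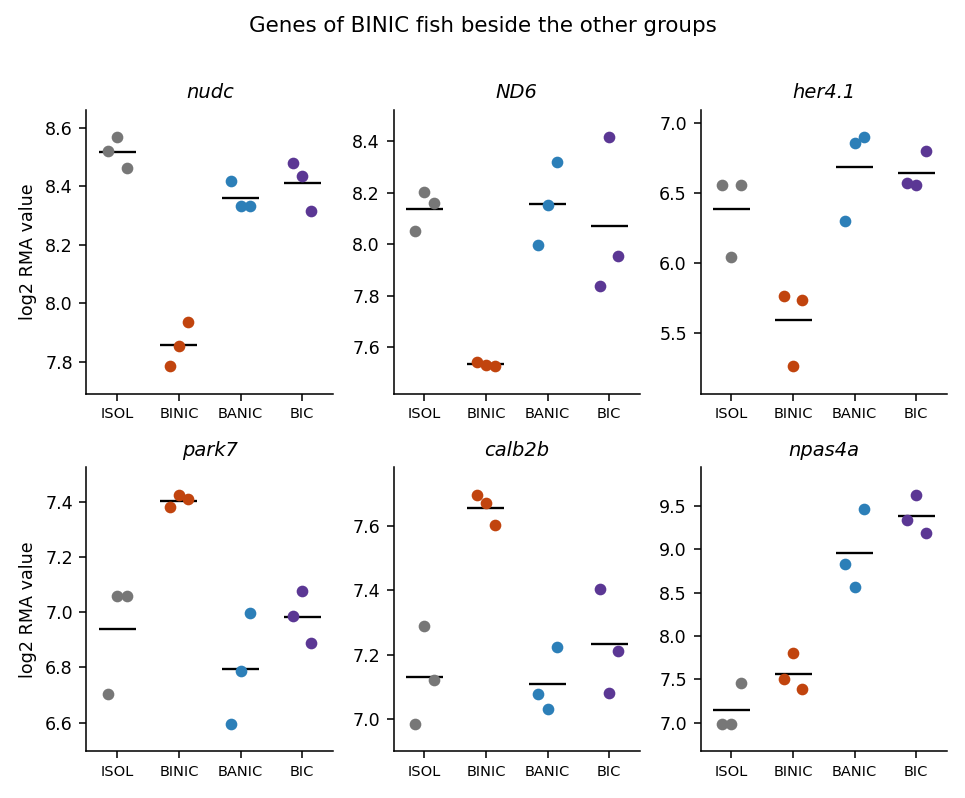
Log2 RMA values of nudc, ND6, her4.1, park7, calb2b and npas4a in the 4 groups, with 1 point per fish and a line at the group mean. In the first 5 genes the BINIC fish lie outside all 9 others, and for npas4a the BINIC fish lie near ISOL and below BANIC and BIC.

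Leaving out ISOL2 raised the DE genes from 3 to 30, and the genes at an FDR under 0.05 from 4 to 48 (0.524%), of which 22 were higher and 26 lower in BINIC. The 4 genes of the full comparison were among the 48. ssr3, hspb6, mrps6, ugt5c3 and psmb1, named above, were also among them, with FDR = 0.0331, 0.0468, 0.0135, 0.0131 and 0.0393 without ISOL2 (limma). Since the 48 genes were selected without ISOL2, its own place in them is given as a description. In 36 of the 48 ISOL2 was nearer to BINIC than to ISOL1 and ISOL3, and in 36 BIC1 was nearer to ISOL1 and ISOL3, against 6 to 10 for each other attentive fish.

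Of the genes named next, serpinb1l2, timd4, mhc2dgb and the taste receptors were chosen after their values were seen. mhc1uba, an MHC class I gene, stood at 7.89, 7.73 and 7.56 in BINIC and 4.42, 7.23 and 3.87 in ISOL, a difference of 3.58 without ISOL2 (FDR = 3.49e-06) and of 2.55 with it (FDR = 0.245). The serpin gene serpinb1l2 was higher by 2.94 without ISOL2 (FDR = 0.000149) and by 1.81 with it (FDR = 0.53). The macrophage receptor timd4 was lower, at 5.25, 5.45 and 5.53 against 7.48, 5.45 and 8.0 (-2.33 without ISOL2, and -1.56 with it, FDR = 0.39). The chemokine ccl34b.4 differed by -2.49 without ISOL2 and -1.85 with it (FDR = 0.223), and the immunoglobulin-domain receptor dicp3.6 by -1.69 and -1.29 (FDR = 0.208). The MHC class II gene mhc2dgb differed by -1.40 without ISOL2 and -1.0 with it (FDR = 0.303). The bitter taste receptors differed by -1.68 and -1.05 (tas2r200.1, FDR = 0.521 with ISOL2) and by -1.84 and -1.23 (tas2r200.2, FDR = 0.39 with ISOL2). pde9ab, a cGMP phosphodiesterase, stood at 7.02, 7.15 and 7.14 in BINIC and 8.69, 7.15 and 8.65 in ISOL (-1.57 without ISOL2, and -1.06 with it, FDR = 0.39). In each of these genes ISOL2 was nearer to BINIC than to ISOL1 and ISOL3.

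**Figure D5:**
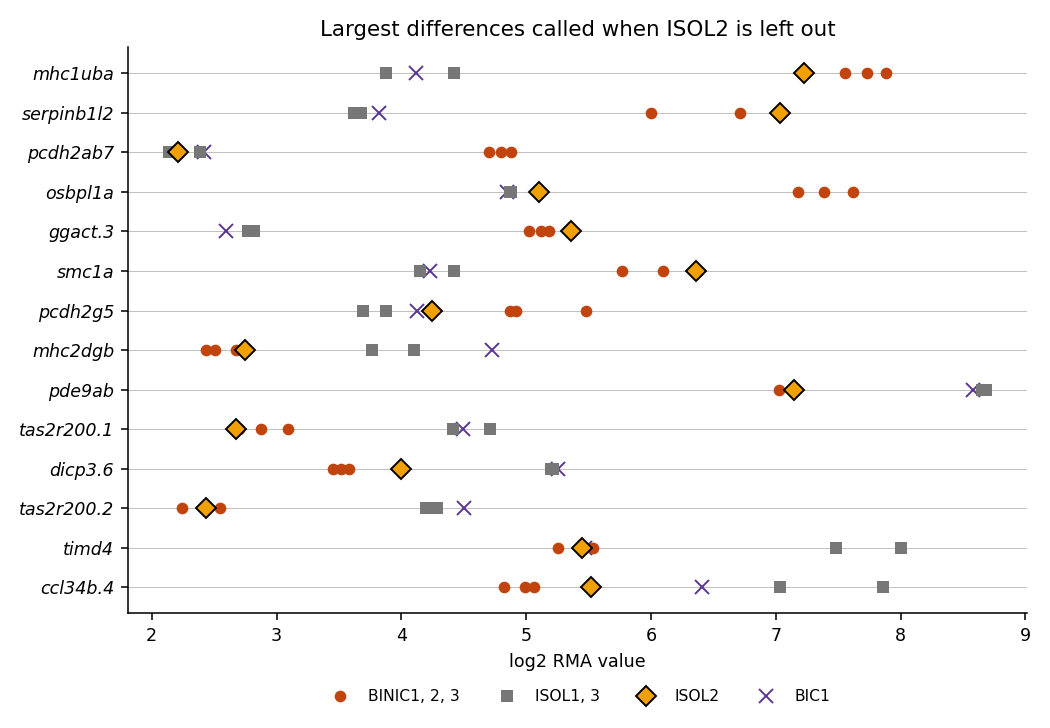
Log2 RMA values of the 14 genes with the largest log2 fold change among those called when ISOL2 is left out and named by more than a clone, with the 3 BINIC fish (circles), ISOL1 and ISOL3 (squares), ISOL2 (diamonds) and BIC1 (crosses). For mhc1uba, serpinb1l2 and pde9ab, among others, ISOL2 lies with BINIC and BIC1 lies with ISOL1 and ISOL3, whereas for pcdh2ab7 and osbpl1a ISOL2 lies with the other isolated fish.

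A step of at least 1 log2 unit divided the 12 fish into 2 levels, with at least 2 fish on each side, in 41 genes. In 2 of the 41, pcdh2ab7 and osbpl1a, the step fell between all BINIC and all ISOL fish. In 13 it set ISOL1 and ISOL3 apart from ISOL2 and the 3 BINIC fish. Other genes of the 41 were divided otherwise. The photoreceptor genes saga, pde6ga and pde6gb, for example, were high in BINIC1, ISOL2, ISOL3 and BANIC1 and low in the other 8 fish. Of the 48 genes called without ISOL2, 15 had such a step.

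By chromosome, the share of genes at an unadjusted P under 0.05 in either direction was 15.5% on chromosome 14, above the 12.1% of chromosome 7 and the 6.36% of chromosome 12, which were the next highest and the lowest of 25. Over all genes with a chromosome it was 9.27%. Without the clustered protocadherins 14.2% of 620 genes remained on chromosome 14, 46 of them higher and 42 lower. By size, 2.19% of all chromosome 14 genes had a log2 fold change of at least 0.5 either way, against 2.33% on chromosome 18. Among the chromosome 14 genes higher at an unadjusted P under 0.05, though short of 0.5, were reep2 and ergic1. reep2, which shapes the endoplasmic reticulum, stood at 9.24, 9.26 and 9.20 in BINIC and 8.68, 8.83 and 8.73 in ISOL (0.48). ergic1, of the secretory pathway, stood at 6.33, 6.33 and 6.36 against 5.81, 5.85 and 5.91 (0.48). For reep2 the lowest fish outside ISOL was BIC1, at 8.82.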

How the data were processed

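The deposited values are log2 values, 1 per probe set and array, which the authors made from Affymetrix zebrafish gene arrays with oligo and RMA (background subtraction, quantile normalization and summary of each probe set). Spot intensities and detection calls are not used here, so a dim gene cannot be told from an absent one, and precision is limited by the number of arrays. Of 23467 probe sets, 20871 were listed in the platform annotation. The 1081 with several genes were left out, and each of 18339 Entrez genes was represented by its brightest probe set on average. RefSeq tables named 18243 of these genes. Differential expression was tested in the 9169 genes whose SD across all arrays exceeded the median SD of 0.127.

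limma 3.58.1 under R 4.3.3 was fitted to the 3 BINIC and 3 ISOL arrays, with Benjamini-Hochberg adjustment, and DE genes had to reach an FDR below 0.05 and a log2 change of 1 or more in size. Gene lists were counted at an unadjusted P under 0.05 in the same fit on all 18339 genes. BINIC was compared with BANIC and BIC in a fit of 12 arrays. P-values are limma's. The fit was tested on simulated data.

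Named genes are those at an FDR under 0.05, the 12 of smallest P in each direction, every cholesterol synthesis enzyme, the members of smallest P in the other lists, and 4 activity genes. Members, lists and rule were chosen with earlier results of these data known. Genes at the widest gaps, on chromosome 14 or called without ISOL2, and srebf2, oxt, pth2, fkbp5, klf9, gfap and list members past the first 4, were chosen after their values were seen. pcdhga10, npas4b and osbpl1a took their names from the study's tables. Alternatives were another filter, probe set rule, scaling, variance model or set of arrays, and each array left out.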

Additional observations from a re-analysis of the deposited data

Results flagged for a closer look

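The genes below had effects that differed between bystander groups, by limma contrasts on the 12 arrays at an FDR under 0.05. The ISOL mean does not enter these contrasts, but the ISOL arrays add to their estimate of the spread. Relative to BANIC, BINIC differed by -1.49 in npas4b, -1.39 in npas4a, -1.28 in fos, -0.92 in egr4, -1.10 in her4.1 and 2.50 in osbpl1a (log2 differences). These 6 genes were selected by this difference, and in each the 3 BINIC fish lay on one side of the 3 BANIC fish. Those lower in BINIC did not pass when only the arrays of this pair were fitted. Relative to BIC, BINIC differed by -1.82 in npas4a, -1.34 in egr4, -1.68 in fos, -1.63 in nr4a1, -1.05 in btg2, -1.60 in msh4, -0.75 in foxf2b and -1.06 in her4.1. btg2 encodes an antiproliferative early gene product, msh4 a meiotic recombination protein and foxf2b a forkhead factor of mural cells. msh4 stood at 3.56, 3.65 and 3.57 in BINIC, 3.83, 3.65 and 3.56 in ISOL, 3.77, 3.53 and 5.03 in BANIC and 5.38, 5.09 and 5.12 in BIC, so that 1 BANIC fish shared the level of BIC. Groups of 3 fish were not tested for single outlying fish.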

How the results depend on the processing

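The 3 DE genes were 0 with dim genes removed, since that filter left them out, and 0 in a fit of all 4 groups, where pcdh2ab7 (FDR = 0.0608) and osbpl1a (FDR = 0.0507) missed the threshold. They were 7 with array weights and ranged from 2 to 30 with 1 array left out, the highest without ISOL2 and the next, 8, without BINIC3. With no SD filter there were 2. The cause of the changes under array weights, without ISOL2 and without BINIC3 was not tested. The 962 higher and 746 lower genes at an unadjusted P under 0.05 became 473 and 329 with the SD filter applied, an alternative chosen after seeing the data, and 710 and 471 with dim genes removed, which left 9169 genes and raised the shares to 7.74% and 5.14%. With 1 array left out they ranged from 658 to 1171 higher and from 578 to 890 lower. Centring each array on its median made them 860 and 858, and repeated quantile normalization 883 and 895, so the excess of higher genes was absent under both scalings. The median of the cholesterol enzymes was 0.44 with dim genes removed, and 11 of 13 were higher. It ranged from 0.31 to 0.41, with 12 to 15 enzymes higher, with 1 array left out, and 14 were higher under either scaling. The 6 genes called between BINIC and BANIC were 1, higher in BINIC, when only those 6 arrays were fitted. The 4 genes past the FDR threshold, those of smallest P and the higher cholesterol enzymes were 37 in all. Their direction was kept in each of the 573 pairs of gene and alternative run, with 18 of the 37 left once dim genes were removed. These genes were picked by this same difference, so a kept direction is no independent support. At the FDR threshold, 534 pairs gave the result of the main fit, 23 gained a call and 16 lost it.

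With the replicate number as a block (replicate block), 3 DE genes were called, 15 cholesterol enzymes were higher, and 7 genes differed from BANIC and 7 from BIC. ugt5c2 lost its call (FDR = 0.0865), as it did after repeated quantile normalization (FDR = 0.0574). The block gave 749 higher and 624 lower genes at an unadjusted P under 0.05. Deviations from the group means correlated at -0.12, -0.15 and -0.08 for equal numbers and at -0.04 to 0.16 for unequal ones. Equal numbers thus showed no positive correlation. The deviations of 3 arrays from their own mean depend on each other, and whether equal numbers shared a processing step was not tested.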
